A study of Mus musculus with 7 samples.

Results

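The H3K4me3 peaks new at P17 are the regions that carried a called H3K4me3 peak in mouse spermatocytes at postnatal day 17 (P17) and shared no base pair with any H3K4me3 peak called at postnatal day 12 (P12). They were thus chosen by the called positions of H3K4me3 in these 2 lists. There were 10057 of them among the 51603 peaks of the P17 list, or 19.5%; the other 41546, which shared at least 1 bp with a P12 peak, are called kept peaks below. All cells were wild-type (WT) spermatocytes of CD1 mice, taken from trypsin- and collagenase-digested testes and fractionated through Percoll, so the fraction may hold other testis cells. Their presence was not examined, since the peak lists carry no gene names and no gene annotation of their genome build was used. Chromatin immunoprecipitation and sequencing was done for H3K4me3 and H3K27me3 at P12 (1 replicate each) and at P17 (2 replicates pooled into 1 list each), and for EED at P17 (1 replicate). Input libraries were not analysed here.

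H3K4me3 is trimethylation of histone H3 at lysine 4 and marks the promoters of active and poised genes. In early meiotic prophase it is also placed at recombination hotspots by the methyltransferase PRDM9. H3K27me3 is the repressive mark written by Polycomb repressive complex 2 (PRC2), of which EED is a core subunit, and in germ cells it often lies on the promoters of somatic developmental genes together with H3K4me3. Between P12 and P17 the most advanced spermatocytes of the first wave progress into the pachytene stage of meiotic prophase.

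The antibody label of the P17 H3K4me3 sample names the H3K27me3 antibody, so the sample was identified by its title. Its list met 42223 of the 44142 P12 H3K4me3 peaks (95.7%) and 8641 of the 13028 P12 H3K27me3 peaks (66.3%). Of its own peaks, 35.3% met the P17 H3K27me3 list. With 1 list per mark and stage there was no replicate check and no p-value was computed. All 95% intervals treat peaks as independent and cover counting only. The lists carry no peak height, and the depth of the H3K4me3 libraries is unknown. H3K27me3 reads over gene bodies summed to 13462873 at P12 and 26664736 in the P17 pool. Whether a new peak was absent at P12 or lay under the calling threshold of the single P12 library was therefore not tested.

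New peaks were narrow. Their median width was 1228 bp (25th to 75th percentile, 1060 to 1480 bp), against 1874 bp (1450 to 2623 bp) in kept peaks. They made up 13.4% of the base pairs of the P17 list, 14.3 of 106 Mb. When the P17 list was divided into 10 classes of equal size by width, new peaks were 59.7% of the narrowest class, from 405 to 1098 bp, and 42.4% of the next. From 1936 bp upwards the share levelled off between 5.24% and 5.62%. The 3 narrowest classes held 68.0% of new peaks and 20.9% of kept peaks. Width belongs to the list that chose the members, so these values are a description.

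**Figure D1:**
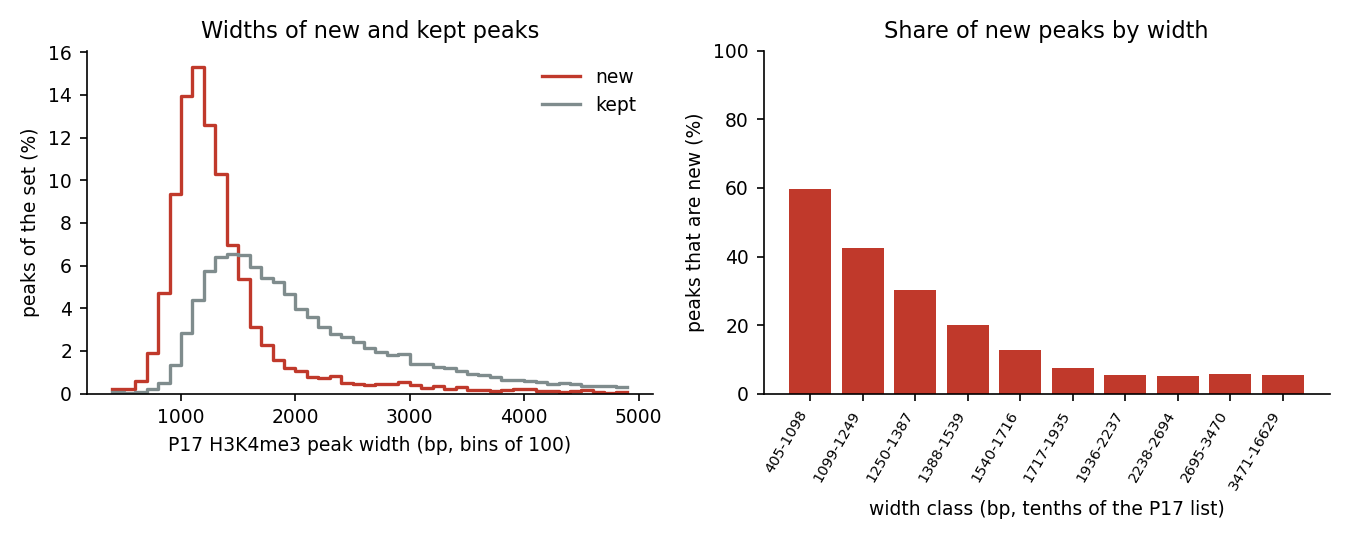
Left, widths of new and kept P17 H3K4me3 peaks in bins of 100 bp, as a percentage of each set (peaks of 5 kb or wider, 66 new and 1354 kept, are off the axis). Right, the percentage of peaks that were new in each of 10 width classes of equal size; it runs from 59.7% in the narrowest class to 5.35% in the widest.

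A minority of new peaks was wide. Of the 10057, 1045 (10.4%) reached 2 kb and 66 (0.656%) reached 5 kb, against 44.1% and 3.26% of kept peaks. The widest was a region of 10591 bp at chr7:80956562-80967152 (mm9, the build of all positions here), with the nearest P12 H3K4me3 peak 29541 bp away. The next was 10310 bp wide at chr16:3231487-3241796 and lay 300182 bp from any P12 peak. A region of 10129 bp at chr7:80243887-80254015 lay 61103 bp from one. The remaining pair, chr7:51485362-51493762 (8401 bp) and chr16:59551770-59560165 (8396 bp), lay 6952 and 21443 bp from a P12 peak. None of these 5 regions met H3K27me3 at either stage, or EED. These 5 were broad H3K4me3 domains in the P17 list that did not adjoin a P12 peak. All 66 new peaks of 5 kb or wider had a median distance of 9962.5 bp to the nearest P12 peak, and 3 lay within 1 kb. New peaks of 2 kb or wider had a median distance of 13006 bp to the nearest P12 peak, and narrower ones 16776.5 bp. Within 1 kb of a P12 peak lay 39 of the 1045, against 433 of the 9012 narrower ones and 4.69% of all new peaks.

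New peaks lay at a wide range of distances from older ones. The median distance, edge to edge, to the nearest P12 H3K4me3 peak was 16405 bp (25th to 75th percentile, 5911 to 42903 bp). For scale, the median distance to the next P17 H3K4me3 peak was 12746 bp in new peaks and 10102 bp in kept peaks. By distance, 472 new peaks (4.69%) lay under 1 kb away, 1738 (17.3%) from 1 to 5 kb, 3391 (33.7%) from 5 to 20 kb, 3457 (34.4%) from 20 to 100 kb and 999 (9.93%) at 100 kb or more. Under 5 kb away, 2210 (22.0%) lay in all, so most new peaks did not adjoin an older one. Width hardly varied with distance, with a median of 1211 bp under 1 kb, 1251 bp from 1 to 5 kb and 1186 bp at 100 kb or more. The nearest P12 peak was itself still in the P17 list for 94.7% of new peaks, near the 95.7% of all P12 H3K4me3 peaks. In all, 8289 P12 peaks (18.8% of their list) were the nearest one to some new peak, and 1437 were so for more than 1.

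**Figure D2:**
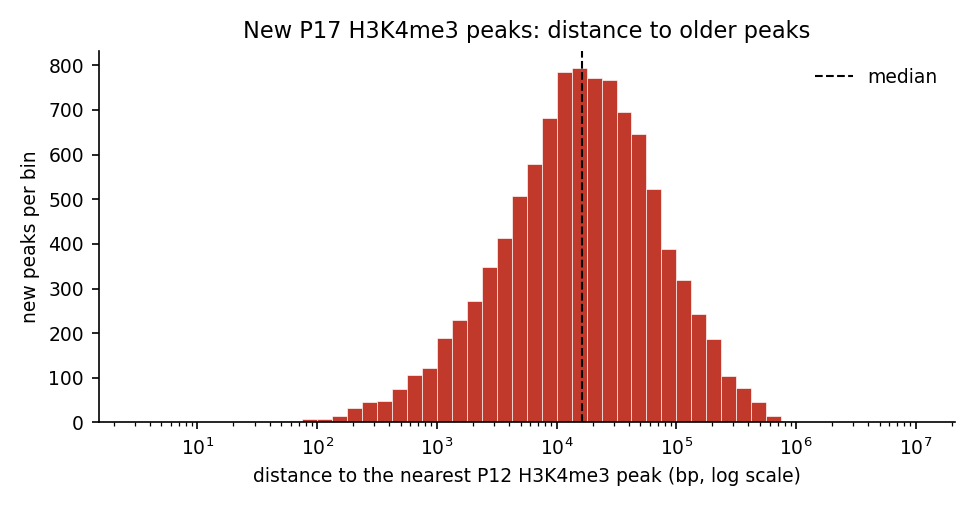
Number of new P17 H3K4me3 peaks by distance to the nearest P12 H3K4me3 peak, on a log axis. The distribution has 1 broad mode around the median of 16405 bp, and distances run from 6 to 2949010 bp.

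The boundary of the rule was sparsely filled. Only 21 new peaks lay within 100 bp of a P12 peak. The closest were at chr15:98679023-98680631, with 6 bp between, chr1:51654821-51656066, with 9 bp, and chr1:37782521-37784015, with 18 bp. On the other side, 4 kept peaks overlapped P12 peaks by 100 bp or less, among them chr5:148112592-148114100 by 13 bp and chr3:89760348-89761685 by 21 bp. A larger group, 1644 kept peaks, was under 50% covered by P12 peaks.

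At the far end stood 3 narrow peaks of the X chromosome. A peak of 430 bp at chrX:30478649-30479078 lay 2949010 bp from any P12 H3K4me3 peak, one of 994 bp at chrX:122622762-122623755 lay 1970792 bp away, and one of 767 bp at chrX:31953940-31954706 lay 1473382 bp away. None of them met H3K27me3 or EED. The largest distance on an autosome was 908552 bp.

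Along the chromosomes, 6058 new peaks (60.2%) had no new peak as a neighbour in the order of the P17 list. The other 3999 formed runs of 2 or more. New peaks were 19.5% of that list, so a random order would also leave a majority without a new neighbour. Clustering was not tested. The longest runs outside chromosome 18, picked out after their values were seen, were 12 consecutive new peaks over 2228 kb at chr8:102981461-105209719, 10 over 355 kb at chr1:32577285-32931881 and 9 over 1385 kb at chr2:141050311-142435355. In each of these runs a single peak met P17 H3K27me3, and median widths were 1043.5, 1025 and 1235 bp. Single peaks in them reached 4132, 2055 and 1480 bp. The nearest P12 H3K4me3 peak lay 51889 to 557079 bp away in the first run, 8975 to 233804 bp in the second and 30633 to 662541 bp in the third.

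The densest windows of 100 kb held 6 new peaks each and differed in kind. At chr14:27112830-27211366 all 6 P17 H3K4me3 peaks were new, none met H3K27me3, and they were wide, at 3310, 4694, 4397, 1847, 2356 and 2099 bp. They lay 45130 to 140357 bp from the nearest P12 peak. At chr4:139488937-139583497, 6 of 11 P17 peaks were new, and their median width was 1081.5 bp. Of these, 5 met H3K27me3 at P17 and none at P12, and 1 ended 302 bp from a P12 peak. At chr5:114037328-114106011, 6 of 9 were new and 4 met P17 H3K27me3, of which 1, at chr5:114099539-114100950, also met it at P12. The first window thus held new H3K4me3 peaks without a called peak of the Polycomb mark, while in the others most of the new H3K4me3 peaks met H3K27me3.

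H3K27me3 was not used to choose the members, and new peaks carried it less often than kept ones. At P12, 297 new peaks (2.95%, Wilson 95% interval 2.64% to 3.30%) overlapped an H3K27me3 peak, against 17.7% (17.3% to 18.1%) of kept peaks and 14.8% of the whole P17 list. At P17, 1334 new peaks did (13.3%, 12.6% to 13.9%), against 40.7% (40.2% to 41.2%) of kept peaks and 35.3% of the list. The difference, new minus kept, was -14.7 percentage points at P12 (Newcombe 95% interval -15.2 to -14.2) and -27.4 points at P17 (-28.2 to -26.6). A new H3K4me3 peak was thus more often free of H3K27me3 at both stages, which held for 8714 of them (86.6%) and for 59.2% of kept peaks.

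The difference was also present among peaks of like width. Combined over the 10 width classes by the Mantel-Haenszel method, it was -8.47 points at P12 (95% interval -9.03 to -7.92) and -21.4 points at P17 (-22.4 to -20.5). For P17 H3K27me3 the interval lay below 0 in 10 of 10 classes, from -7.32 points in the narrowest to -36.5 points between 1717 and 1935 bp. For P12 H3K27me3 it did so in 9 of 10. The exception was the narrowest class, where 2.81% of new and 3.69% of kept peaks met the mark and the difference was -0.88 points (-1.92 to 0.09). Among kept peaks the P17 share climbed from 20.05% in the narrowest class to 48.1% between 1936 and 2237 bp. Among new peaks it showed no such climb and stayed between 9.18% and 15.4%.

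**Figure D3:**
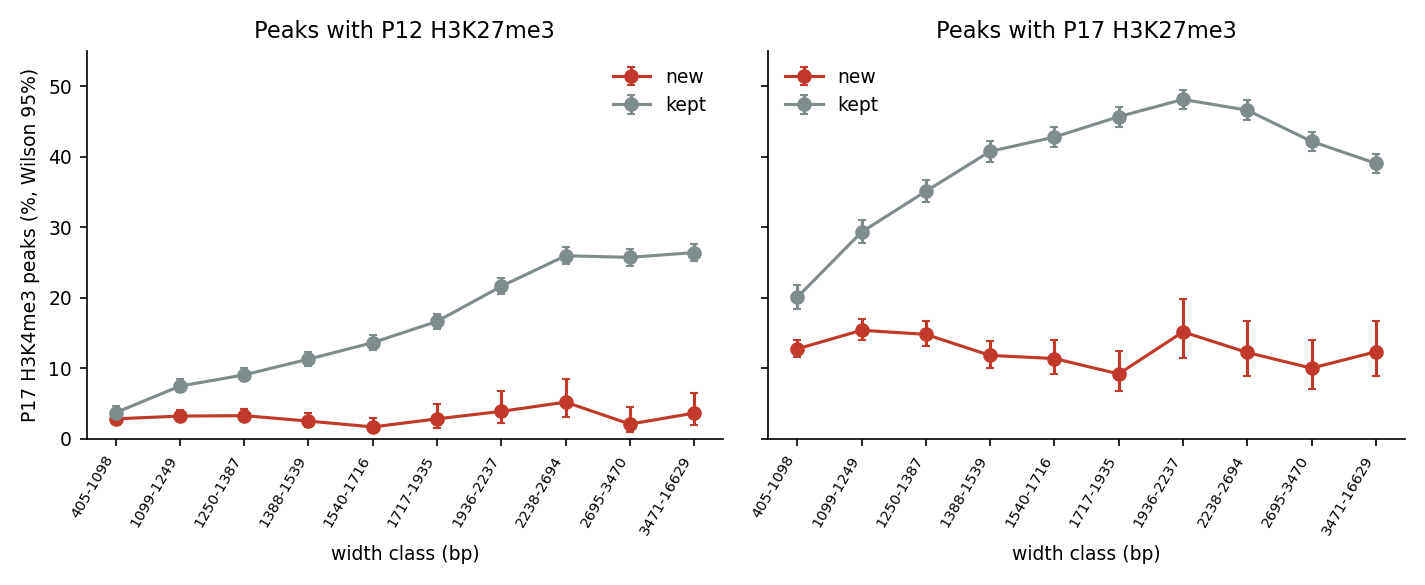
Percentage of new and kept P17 H3K4me3 peaks overlapping H3K27me3 at P12 (left) and P17 (right) in 10 width classes, with Wilson 95% intervals. New peaks stay near the bottom at every width, while the share in kept peaks at P17 goes from 20.05% in the narrowest class to 48.1% in the seventh.

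It was present among peaks of like spacing as well. Among peaks with another P17 H3K4me3 peak within 1 kb, 28.5% of new and 58.9% of kept peaks met P17 H3K27me3. Among those isolated by 100 kb or more, the shares were 3.34% and 23.9%. In both sets H3K27me3 was more frequent where H3K4me3 peaks were crowded, and new peaks had the lower share in each of the 5 spacing classes. The intervals of the difference lay between -33.8 and -17.7 points over those classes. Combined over width and spacing together, a comparison added after the data had been seen, the difference at P17 was -21.1 points (-22.1 to -20.2).

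Most new peaks that met H3K27me3 at P17 had met none at P12. The lists themselves differ in this direction: the P12 H3K27me3 list covers 21.6 Mb and the P17 list 86.4 Mb, and 32.1% of all P17 H3K27me3 peaks have a P12 counterpart. Of the 1334 new peaks with P17 H3K27me3, 1046 (78.4%, 76.1% to 80.5%) had no H3K27me3 peak over them at P12. Among kept peaks this share was 56.9% (56.1% to 57.6%), a difference of 21.6 points (19.2 to 23.8). That difference was not matched for width and varied with it. In the narrowest width class, 87 new peaks met P12 and 394 met P17 H3K27me3, against 77 and 418 kept peaks, so new peaks showed no such excess there. Between 2695 and 3470 bp the counts were 6 and 29 new peaks, against 1251 and 2051 kept peaks. These 1046 regions, 10.4% of all new peaks, had no called peak of either mark at P12 and both at P17; H3K27me3 at P17 only was found at 23.1% of kept peaks. Another 288 (2.86%) had H3K27me3 at both stages and H3K4me3 at P17, against 17.6% of kept peaks with H3K27me3 at both stages. Just 9 had H3K27me3 at P12 only, so 97.0% of the new peaks with P12 H3K27me3 also met it at P17, against 99.2% of kept ones. An overlap of peaks from a cell population does not show that both marks lay on the same chromatin fibre.

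The widest new peaks with H3K27me3 at both stages were chr11:114043990-114049384 (5395 bp), chr2:170294164-170298405 (4242 bp) and chr8:124293267-124297507 (4241 bp). In all 3 the mark covered more of the region at P17 than at P12, as H3K27me3 peaks did over the whole list, with median widths of 1090 bp at P12 and 2529 bp at P17. Coverage by H3K27me3 peaks was 32.9% at P12 and 67.0% at P17 in the first, 30.5% and 65.6% in the second, and 16.0% and 72.3% in the third. With H3K27me3 at P17 only, the widest were chr15:101846127-101853533 (7407 bp), chr17:57011184-57017577 (6394 bp) and chr13:59245545-59251147 (5603 bp). There the mark took up 0.257%, 23.5% and 46.5% of the peak, so the first touched it at an edge only. Such partial contact was the exception among new peaks with P17 H3K27me3, of which 927 of 1334 (69.5%) lay wholly inside an H3K27me3 peak and 1204 (90.3%) had at least 50% of their length covered. Among kept peaks, 70.4% lay wholly inside, a similar share. At least 50% was covered in 96.4% of kept peaks (96.1% to 96.7%), above the interval of new peaks (88.5% to 91.7%). Coverage under 50% was thus more frequent among new peaks, in a comparison not matched for width.

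Of the 9 new peaks with H3K27me3 at P12 only, 6 had a P17 H3K27me3 peak 304 to 3692 bp away. The farthest were chr3:104969034-104970383, at 57008 bp, and chr6:52149862-52151178, at 52085 bp, both named after their values were seen. The widest, chr14:25109928-25116464 (6537 bp), lay 3011 bp from a P17 H3K27me3 peak.

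From the side of H3K27me3, 1323 of the 26387 P17 peaks (5.01%) held a new H3K4me3 peak, and 1298 of these held just 1. In 1021 of them the new peak was the sole H3K4me3 peak, and these H3K27me3 peaks were short, with a median of 2110 bp, and 16.5% (14.3% to 18.9%) had a P12 H3K27me3 counterpart. The other 302 also held a kept H3K4me3 peak, had a median width of 6313 bp, and 72.5% (67.2% to 77.2%) had a P12 counterpart. Having to meet both a new and a kept H3K4me3 peak favours wide H3K27me3 peaks, and wide peaks meet more of any other list. H3K27me3 peaks with kept H3K4me3 only stood between, at 3018 bp and 41.0%. The 9751 without any H3K4me3 peak had a median of 2041 bp, and 18.4% (17.6% to 19.2%) had a P12 counterpart, so in both respects the 1021 were like P17 H3K27me3 peaks free of H3K4me3.

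The frequency of H3K27me3 fell off with distance from older H3K4me3 peaks. Under 1 kb from a P12 H3K4me3 peak, 39.2% (34.9% to 43.7%) of new peaks met P17 H3K27me3 and 15.7% (12.7% to 19.2%) met P12 H3K27me3. From 5 to 20 kb the shares were 12.7% (11.6% to 13.8%) and 2.12% (1.69% to 2.67%), and at 100 kb or more 3.80% (2.78% to 5.18%) and 0.2% (0.0549% to 0.727%). The 5 distance classes stood in order with non-overlapping intervals at P17. Among kept peaks that had another P17 H3K4me3 peak within 1 kb, 58.9% (57.1% to 60.7%) met P17 H3K27me3. That set was chosen by the distance to a P17 peak rather than a P12 peak and was not matched for width.

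The mark of the neighbour went with that of the new peak. Under 1 kb, 72.7% (66.7% to 78.0%) of new peaks met P17 H3K27me3 when the nearest P12 H3K4me3 peak did so too, but 5.13% (2.96% to 8.75%) when it did not. From 1 to 5 kb the shares were 38.3% (34.9% to 41.8%) and 9.61% (7.92% to 11.6%). From 5 to 20 kb they were 21.1% (19.0% to 23.4%) and 7.13% (6.09% to 8.32%), and at 100 kb or more 5.37% (3.17% to 8.97%) and 3.30% (2.25% to 4.83%), where the intervals overlapped. Beside marked neighbours the share went down over all 5 distance classes, and beside unmarked ones it went down from 1 to 5 kb outwards, over a smaller range. Within 1 kb, 165 of the 185 new peaks with H3K27me3 (89.2%) lay under the same H3K27me3 peak as the neighbour. From 1 to 5 kb this held for 141 of 385, and from 5 to 20 kb for 1 of 429.

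**Figure D4:**
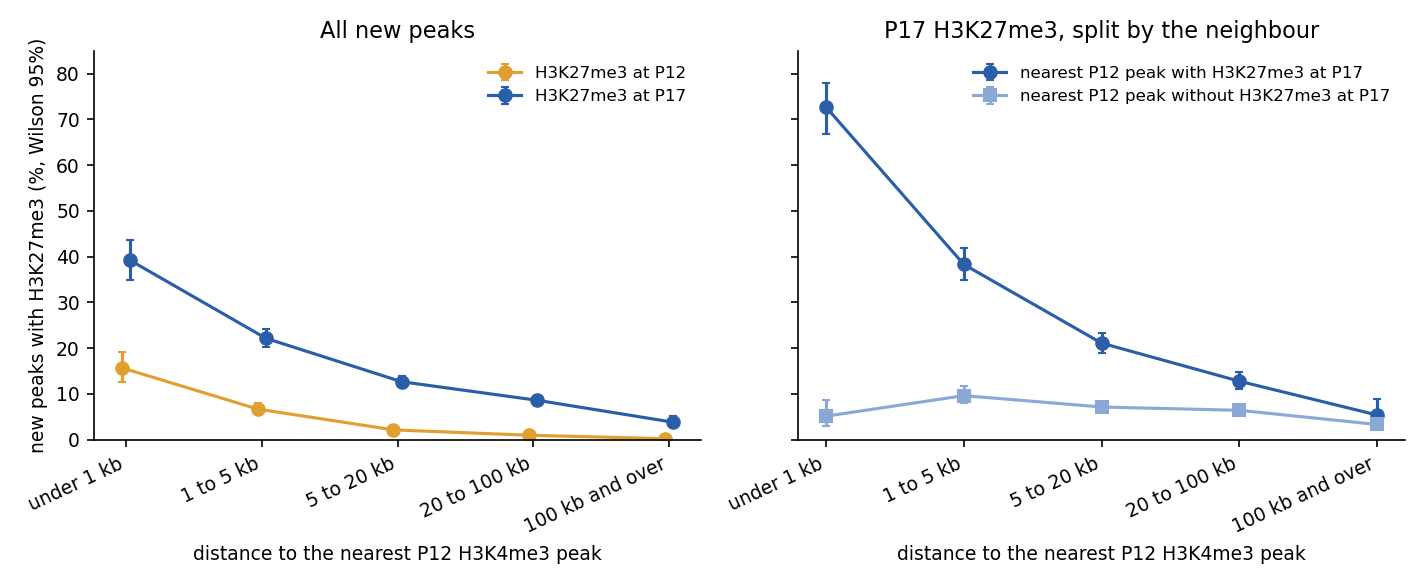
Percentage of new P17 H3K4me3 peaks overlapping H3K27me3 by distance to the nearest P12 H3K4me3 peak, with Wilson 95% intervals, for H3K27me3 at each stage (left) and for P17 H3K27me3 split by whether that nearest P12 peak met P17 H3K27me3 (right). At P17 the share goes from 39.2% under 1 kb to 3.80% at 100 kb or more, and without an H3K27me3-marked neighbour it is under 10% at each distance.

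EED, the PRC2 subunit, was found at few new peaks. Its peaks overlapped 36 of the 10057 (0.358%, 0.259% to 0.495%), against 2.22% (2.09% to 2.37%) of kept peaks and 1.86% of the whole P17 list. The difference was -1.87 points (-2.04 to -1.67), and combined over width classes -0.764 points (-0.953 to -0.575). It was -0.494 points (-0.606 to -0.360) when EED had to cover at least 50% of the peak. EED peaks were short, with a median of 303 bp, so this setting was harder to meet for the wider kept peaks. The share of new peaks with EED was 0.209% with that setting or at 1 kb or more from P12 H3K4me3, 0.183% with P17 peaks merged over gaps up to 1 kb, and 0.0637% at 5 kb or more from P12 H3K4me3. Within single width classes the interval lay below 0 in 3 of 10, the fourth and the 2 widest. In the narrowest class, 10 of 3095 new and 4 of 2085 kept peaks met EED, a difference of 0.13 points (-0.20 to 0.43). The EED difference was thus clearest at wide peaks: in the 2 widest classes 0 of 566 new peaks met EED, against 3.80% and 7.14% of kept peaks.

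Most new peaks with EED, like most kept peaks with EED, belonged to older Polycomb regions. Of the 36, 31 had H3K27me3 at both stages, 1 at P17 only and 4 at neither. Of the 924 kept peaks with EED, 833 had H3K27me3 at both stages. Among new peaks with H3K27me3 at both stages, 10.8% (7.69% to 14.9%) met EED, against 11.4% (10.7% to 12.2%) of kept peaks in that state, with overlapping intervals. With H3K27me3 at P17 only, the shares were 0.0956% (0.0169% to 0.540%) and 0.427% (0.315% to 0.578%), where the intervals also overlapped. Among new and kept peaks alike, EED was more frequent with H3K27me3 at both stages than at P17 only. With H3K27me3 at P12 only, 19 of 59 kept peaks met EED (32.2%, 21.7% to 44.9%), and 0 of 9 new peaks did. Of the 36, 16 lay within 1 kb of a P12 H3K4me3 peak and 5 lay 5 kb or farther away. The widest were chr5:29797336-29799722 (2387 bp), chr8:12390107-12392353 (2247 bp) and chr5:77282502-77284592 (2091 bp), at 238, 2148 and 386 bp from a P12 H3K4me3 peak. H3K27me3 peaks covered them completely at P17.

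New peaks were spread over all autosomes. They made up between 16.0% of P17 H3K4me3 peaks on chromosome 11 (Wilson 95% interval 14.8% to 17.3%) and 23.8% on chromosome 14 (22.0% to 25.7%), with a median of 19.7% over 19 autosomes. Chromosome 11 had the most kept peaks per Mb of the stretch covered by the list, 22.9, and chromosome 14 the fewest, 12.9. The number of new peaks per Mb varied less, from 3.39 on chromosome 7 to 4.89 on chromosome 5, a range of 1.44 times against 1.78 times for kept peaks. Across the 19 autosomes the share of new peaks went down as kept peaks per Mb went up (Spearman's rho -0.70), while new peaks per Mb went up with them (rho 0.63). These correlations are descriptions, since both measures come from the same list and the share contains the kept count. Median widths of new peaks were alike, between 1189 and 1274 bp.

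On every autosome new peaks met H3K27me3 less often than kept ones, at both stages. At P17 the difference ran from -33.3 points on chromosome 19 to -24.2 points on chromosome 16. Chromosome 5 had the highest shares among new peaks, 19.7% at P17 and 6.03% at P12, and chromosome 14 the lowest P17 share, 9.24%. Chromosome 14 thus had the largest fraction of new H3K4me3 peaks and the smallest fraction of those with H3K27me3.

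**Figure D5:**
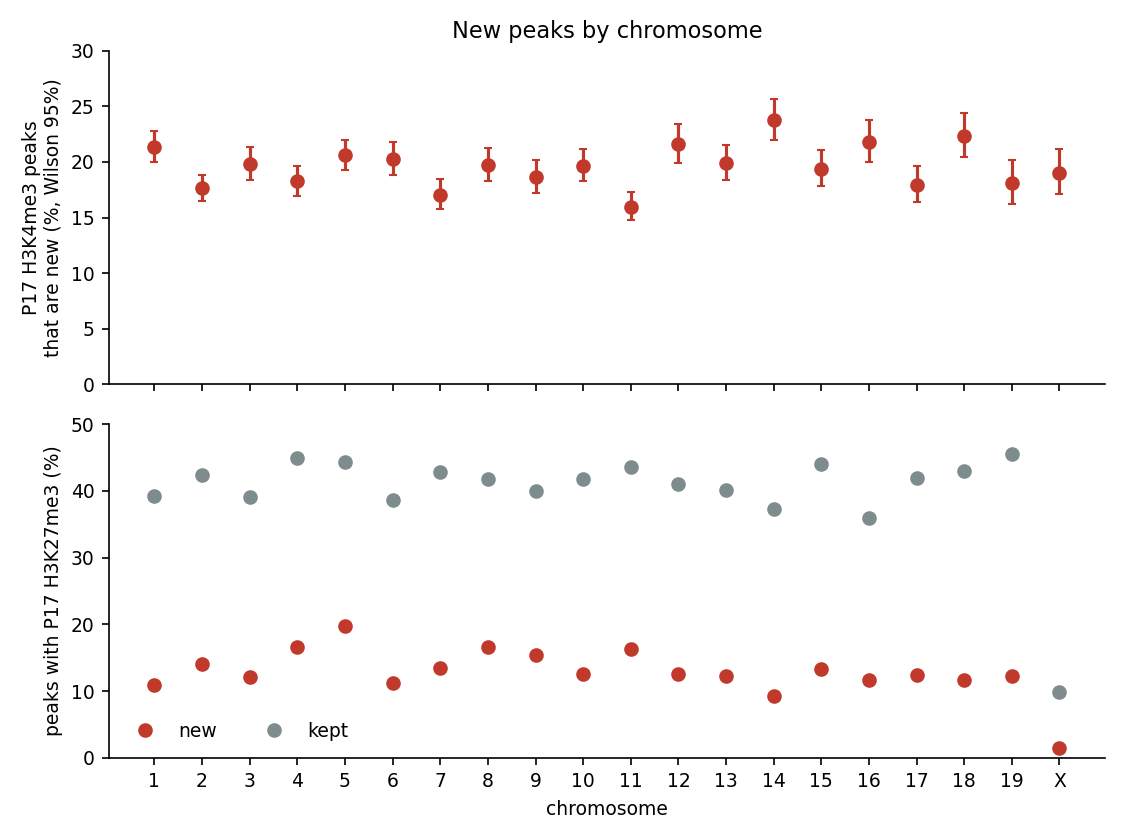
Top, percentage of P17 H3K4me3 peaks that were new on each autosome and on X, with Wilson 95% intervals. Bottom, percentage of new and of kept peaks overlapping P17 H3K27me3; new peaks lie below kept ones on each chromosome shown, and both lie lowest on X, at 1.49% and 9.80%.

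The X chromosome had 269 new peaks among 1412 (19.1%, 17.1% to 21.2%), against 19.5% on autosomes, a difference of -0.45 points (-2.44 to 1.71) whose interval spanned 0. X peaks of the P17 list were sparse, with 1.67 new and 7.08 kept peaks per Mb. New peaks on X were narrower than those on autosomes, with a median of 1060 bp (order-statistic 95% interval 1019 to 1107 bp) against 1232 bp (1225 to 1240 bp). They were also farther from P12 peaks, at 30266 bp (23817 to 39114 bp) against 16176 bp (15497 to 16770 bp). Just 3 of the 269 reached 2 kb. When the P17 list was restricted to peaks of 1000 bp or wider, new peaks were less frequent on X, by -4.04 points (-5.84 to -2.03). H3K27me3 was rare there, meeting 4 of the 269 at P17 (1.49%, 0.580% to 3.76%) and 9.80% (8.21% to 11.7%) of kept X peaks. The Y chromosome had 3 new peaks among 14.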

How the data were processed

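The authors deposited lists of called peaks (start and end, with no score) for H3K4me3 and H3K27me3 at both stages and for EED, made with MACS per the peak names and at a level of 5 for a false discovery rate per the file names. The processing notes of the submitters name Bowtie, SAMtools, HTSeq and mm9, with no roles. Settings of the caller: not given in the sources used here. Of the peak numbers, 13.1% did not occur in the P12 H3K27me3 list, 11.0% in the EED list and 0.255% in the P17 H3K4me3 list. Raw read counts per gene body, deposited by the authors for H3K27me3, served for depth only. Of 7 samples, 5 had peak lists that were used.

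Peaks were compared in Python 3.11.15 (numpy 2.4.6, pandas 2.3.3, scipy 1.17.1) by overlap of at least 1 bp; distances run between nearest edges, and positions count from 1. The overlap and interval code was tested on simulated intervals. Shares have Wilson intervals, differences of shares Newcombe intervals, and combined differences Mantel-Haenszel (Sato) intervals, all at 95%. Named peaks are the 5 widest, the 3 farthest from P12 H3K4me3, the 3 widest with H3K27me3 at both stages, at P17 only and with EED, the 3 windows of 100 kb with the most new peaks, and those nearest the rule's boundary, leaving out chromosomes 18 and Y. Alternatives changed the overlap, the least distance, the least width, merging of peaks and the chromosomes. Members and lists were chosen with earlier results of these data known. No genome or annotation of mm9 was used, so no gene or sequence is given for a peak.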

Additional observations from a re-analysis of the deposited data

How the results depend on the processing

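Of 68 recomputed values, 33 stayed inside the 95% interval of the reported value (for the number of new peaks, within 1.5 times), 35 moved outside it and 0 changed sign among the differences whose interval excluded 0. The number of new peaks ran from 7847 to 11701. With peaks called old only when 50% covered at P12, the median width was 1293 bp, the median distance 12028 bp, H3K27me3 shares 3.88% (P12) and 14.9% (P17), and the differences from kept peaks -14.2 and -26.4 points. With a least distance of 1 kb, the distance was 17761 bp, the shares 2.33% and 11.99%, EED 0.209%, and the differences -15.4 and -28.7 points. With 5 kb, the distance was 24431 bp, the shares 1.36% and 9.74%, EED 0.0637%, and the differences -16.3, -30.9 and, for EED, -2.16 points; the shares go down by construction, since near peaks are left out. With 50% of the peak covered by the other mark, the shares were 2.13% and 11.97%, EED 0.209%, and the differences -11.3 points at P12 and -0.494 points for EED. With peaks of at least 1000 bp, the width was 1298 bp, the distance 15413 bp and X minus autosomes -4.04 points. After merging over gaps up to 1 kb, the distance was 18240 bp, the shares 2.29% and 11.9%, EED 0.183%, and the P17 difference -28.4 points. Combined over width and spacing, an alternative added after the data had been seen, the differences were -8.47 points (P12), -21.1 points (P17) and -0.842 points (EED). Autosomes alone moved nothing. A stricter calling threshold could not be tried, since the lists have no scores. No paired analysis was possible because each mark and stage has 1 list and the P17 replicates are pooled.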

Other observations

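The 4 new peaks that met EED but no H3K27me3 at either stage lay at very different distances from P17 H3K27me3, on either side of the median of 47082.5 bp of all new peaks without P17 H3K27me3. They were chr2:43050886-43051499 (614 bp, 540756 bp from a P17 H3K27me3 peak), chr2:90234868-90235548 (681 bp, 182703 bp), chr4:62517456-62519010 (1555 bp, 13832 bp) and chr5:136548859-136550074 (1216 bp, 9274 bp). Their nearest P12 H3K4me3 peaks were 123624, 79421, 23493 and 8393 bp away. They made up 4 of the 5 new peaks with EED at 5 kb or more from older H3K4me3.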
